A study of Danio rerio with 6 samples.

Results

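The heat shock protein and chaperone genes of zebrafish (Danio rerio) were examined in messenger RNA of 6 single whole embryos at the 10-somite stage. Members were chosen by name: symbols starting with hspa, hspb, hspd or hspe and a digit, with hsp70, hsp90 or dnaj, or with cct and a digit, that had at least 10 counts summed over the 6 embryos. Of 88 entries with such symbols, 84 passed, out of 32057 genes in the table. The 4 left out were dnajc5b with 5 counts, hspb15 with 3, and dnajc22 and hspb3 with 2 each, and the members nearest to the limit were hspb2 with 18 counts and hspb6 with 22. The comparison was between 3 wild-type embryos (WT) and 3 embryos mutant in Pea3 genes (3etv, a triple mutant by its label), which encode ETS factors that act under FGF signals. Which genes and alleles were mutated is not stated in the labels, nor are the parents, clutch or incubation of any embryo. The effect of genotype and that of clutch, line or handling cannot be told apart, and p-values measure the spread between these single embryos.

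Chaperones bind unfolded or partly folded proteins and help them fold, assemble or be degraded. Hsp70 proteins work in cycles of ATP binding, stimulated by J-domain (dnaj) partners and reset by nucleotide exchange factors, and Hsp90 proteins finish the folding of many kinases, receptors and myosins. Cells keep constitutive forms in the cytosol at all times and switch on inducible forms through heat shock factors when proteins misfold. The endoplasmic reticulum and the mitochondria have sets of their own, small heat shock proteins hold unfolded chains, and the ring-shaped TRiC complex folds actin and tubulin.

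Gene counts totalled from 18484238 to 28841169 per embryo, so that 1 count equalled from 0.0342 to 0.0553 CPM, the count scaled to a library total of 1000000 with TMM scaling. Group values are means ± SD over 3 embryos. The entry for reads in no gene took from 52.8% to 53.6% of the table's reads, and the entry for reads aligned at several places took from 5.12% to 6.38%, none of which count for any gene. The muscle, notochord and red blood markers looked up in the whole-embryo libraries were present in each, with summed levels of at least 1280.2, 253.2 and 8.88 CPM. The 84 members together held between 1.94% and 2.13% of gene counts in every embryo. In bulk RNA, fewer cells of a type and less RNA per cell cannot be told apart.

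Inducible Hsp70 and Hsp90 genes were several-fold higher in 3etv, and 7 of 17 chaperones of the endoplasmic reticulum were higher by smaller factors. The muscle Hsp90 and part of the TRiC subunits were lower, and most constitutive cytosolic chaperones did not pass the test. Of the 84 members, 81 had enough counts to be tested, and 34 of these (42%) differed between 3etv and WT at an adjusted p under 0.05 (edgeR quasi-likelihood, Benjamini-Hochberg over 18533 genes), against 31.3% of all tested genes. Of the 34, 20 were higher in 3etv and 14 lower, or 24.7% and 17.3% of members, against 15.9% and 15.4% of all genes. For 44 members (54.3%) the ranges of WT and 3etv were apart, against 45.1% of all genes. Of the 81 tested members, 7 were called with a log2 ratio of at least 1 in size, against 1882 of 18533 genes (10.2%). Among calls alone, these were 7 of 34 members and 1882 of 5801 genes. The share of members was the lower on both bases. The log2 ratio is the fitted log2 of the level in 3etv over that in WT, given with its standard error (SE), and its median was 0.072 over the members and 0.0035 over all genes. The counts of members above include hsp70.1, hsp70.2 and hsp70l, which reached the filter on low counts in all 3 embryos only in 3etv. In WT, 2 embryos reached it for hsp70l and 0 for hsp70.1 and hsp70.2. The counts also include hspb9, which reached it through WT embryos alone. For these genes, being tested was not independent of the direction of change. In fits without 1 embryo the count of differing members lay between 20 and 33. It was 20 without WT embryo 2, and 22 without WT embryo 3 or without 3etv embryo 2. The count over all genes fell as well, from 5801 to 4385, 4719 and 4247 in the same order. The drop was therefore not particular to the members.

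**Figure D1:**
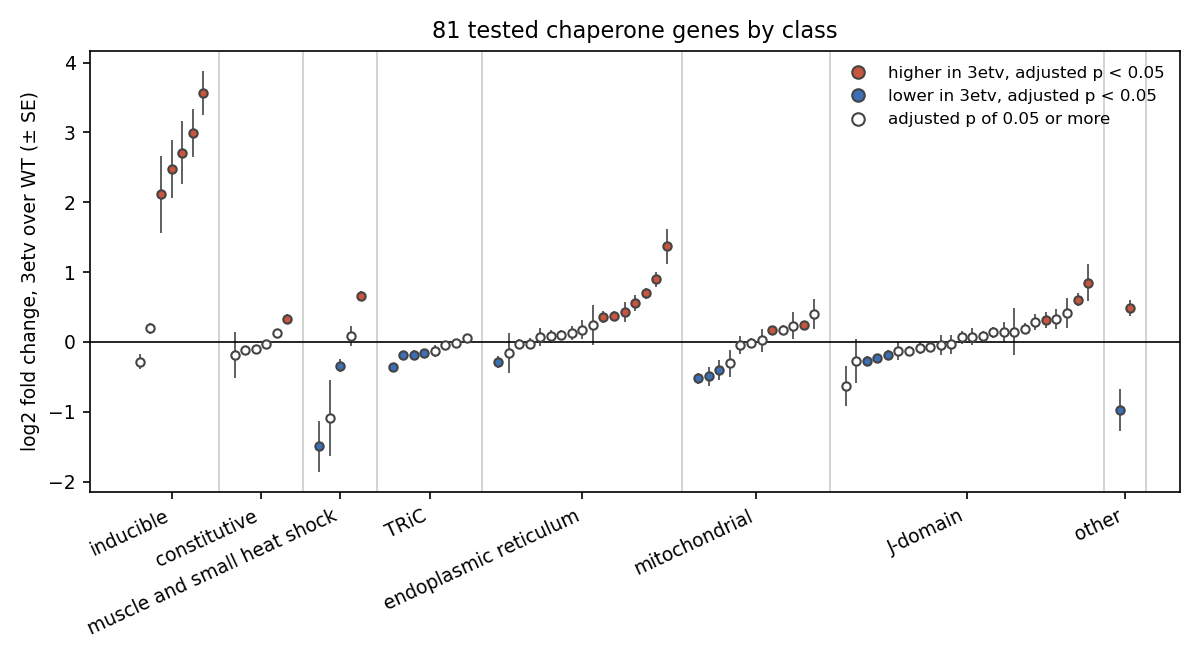
Log2 ratio (3etv over WT) with its standard error for the 81 tested members, ordered by size within each class; coloured points passed an adjusted p of 0.05. The 5 largest rises are all in the inducible class, from 2.11 to 3.57, while the TRiC and constitutive classes stay between -0.36 and 0.33. Of these 5, hsp70.1, hsp70.2 and hsp70l reached the filter on low counts in all 3 embryos only in 3etv.

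Inducible chaperones were the members with the largest changes. Of the 7 inducible members, 5 rose (71.4%, against 15.9% of all genes) and 0 fell, with fold changes from 4.33 to 11.8. All 5 had their lowest 3etv embryo above the highest WT embryo, by factors from 2.08 for hsp70.1 to 7.20 for hsp70l. Ranges of WT and 3etv were apart for 45.1% of all genes. The class median was 2.48, but hsp70.1, hsp70.2 and hsp70l reached the filter on low counts in all 3 embryos only in 3etv. So the count, the median, their place among the largest changes and the gap between groups are not independent of their direction. hsp70.3 and hsp90aa1.2 reached the filter in both groups and rose 7.97-fold and 6.55-fold.

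hsp70l (ENSDARG00000055723) encodes a heat-inducible Hsp70 that in zebrafish is also made in the developing lens without heat. It had 12, 9 and 12 counts in WT embryos 1 to 3 and 72, 155 and 81 in 3etv embryos 1 to 3. These equal 0.535, 0.308 and 0.479 CPM against 3.85, 7.13 and 4.48 CPM, a log2 ratio of 3.57 (SE 0.32, edgeR adjusted p 4.2e-06). The groups were far apart, and 3etv embryo 2 was the highest. The lens markers cryaa and crygm2d10 had 0 counts in all embryos, and crybb1 lay between 0.092 and 0.357 CPM.

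hsp70.3 (ENSDARG00000021924), another stress-inducible Hsp70, had 1.61, 1.03 and 1.08 CPM in WT and 6.10, 14.5 and 8.51 CPM in 3etv. It rose 7.97-fold (log2 ratio 3.00, SE 0.34, edgeR adjusted p 1.6e-04). hsp70.2 (ENSDARG00000092362) had 7, 8 and 6 counts in WT and 16, 47 and 29 in 3etv, and rose 5.57-fold (SE 0.42 on the log2 scale, adjusted p 6.7e-04). Both were higher in every 3etv embryo than in any WT embryo, with 3etv embryo 2 the highest. hsp70.1 (ENSDARG00000029688) had the fewest counts, 5, 2 and 6 in WT and 10, 26 and 9 in 3etv, and rose 4.33-fold (SE 0.55 on the log2 scale, adjusted p 0.011). hsp70.1 missed the threshold once 3etv embryo 2 was left out (edgeR adjusted p 0.093), and likewise for WT embryo 2 (adjusted p 0.053). In RefSeq's gene order for GRCz12tu, hsp70.1, hsp70.2 and hsp70.3 lie next to each other. Reads from such copies can be split between entries or dropped, so the values of single copies are uncertain. Summed over these 3 entries and hsp70l, the level was 2.68, 1.68 and 2.04 CPM in WT and 11.35, 25.02 and 15.1 CPM in 3etv, 8.18-fold higher (edgeR adjusted p 4.6e-04), a sum that was chosen after the values were seen.

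hsp90aa1.2 (ENSDARG00000024746) is the Hsp90 alpha gene grouped here with the inducible forms. It had 35.9, 22.9 and 19.7 CPM in WT and 104.0, 250.8 and 155.9 CPM in 3etv, a 6.55-fold rise (log2 ratio 2.71, SE 0.46, edgeR adjusted p 0.014). The lowest 3etv embryo was 2.90 times the highest WT embryo. Its spread was wide in both groups, with the highest embryo at 2.41 times the lowest in 3etv and 1.82 times in WT. The call was lost without WT embryo 2 (adjusted p 0.071) or WT embryo 3 (adjusted p 0.060), with log2 ratios of 2.62 and 2.54.

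The Hsp40 partners grouped with the inducible genes did not pass. dnajb1b (ENSDARG00000041394), a J-domain partner of cytosolic Hsp70, had 64.6, 55.2 and 57.4 CPM in WT and 60.4, 71.3 and 70.6 CPM in 3etv (log2 ratio 0.19, SE 0.083, edgeR adjusted p 0.095). Its groups overlapped, and it passed without WT embryo 1 (adjusted p 0.024) or without 3etv embryo 1 (adjusted p 0.027). Its paralogue dnajb1a (ENSDARG00000099383) had 9.77, 10.3 and 10.5 CPM in WT and 8.67, 8.46 and 8.01 CPM in 3etv, below WT in each embryo (log2 ratio -0.28, adjusted p 0.075).

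**Figure D2:**
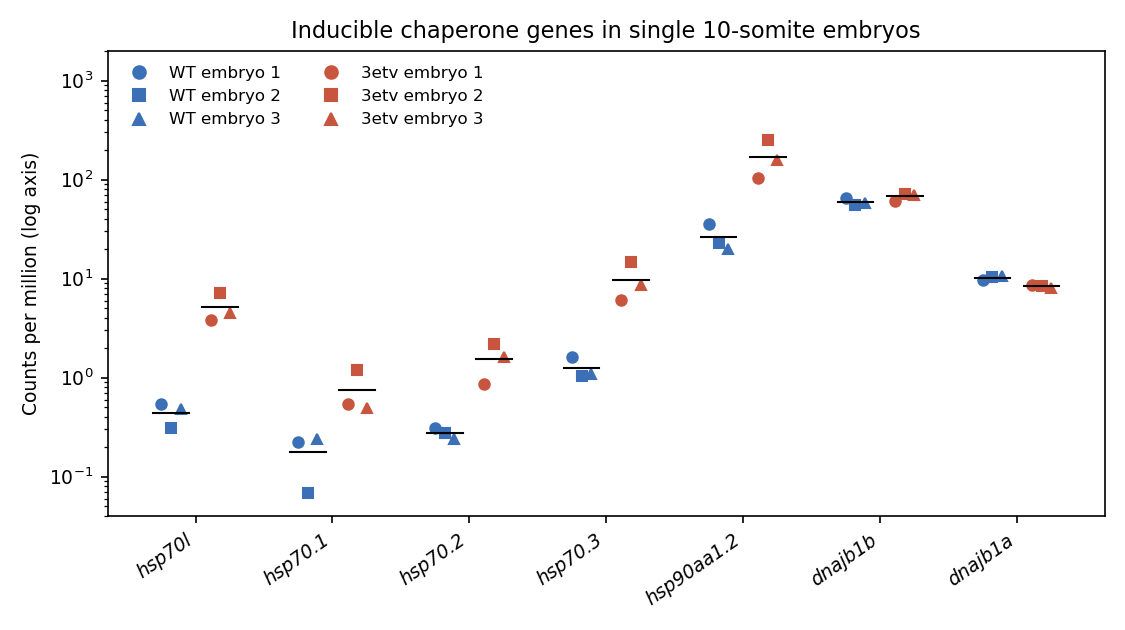
CPM (log axis) of the 7 inducible members in each embryo, with horizontal bars at the group means; circles, squares and triangles are embryos 1, 2 and 3 of each group. hsp70l, hsp70.1, hsp70.2, hsp70.3 and hsp90aa1.2 do not overlap between groups, and 3etv embryo 2 is the highest in each of them. Groups do not overlap for 45.1% of all genes. hsp70l, hsp70.1 and hsp70.2 reached the filter on low counts in all 3 embryos only in 3etv.

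The 3etv embryos differed among themselves in these genes. Embryo 2 was the highest of the 3 for 6 of the 7 inducible members, and 5 of the 7 had the order embryo 2, then 3, then 1, an order found in 16% of all tested genes. The members share libraries, so this agreement is a description and not a test. Within 3etv the median coefficient of variation of the inducible members was 42.5%, against 10.3% for all tested genes, and within WT it was 25.9% against 9.72%. In WT, hsp70.1, hsp70.2 and hsp70l had at most 12 counts per embryo, and hsp70.3 had from 27 to 36. Counts this low widen the coefficient by sampling alone, and the size of that part was not tested. Without 3etv embryo 2, 4 of the 7 still rose, with a class median of 2.14, and 4247 of all genes were called in either direction. The 4 include hsp70.2 and hsp70l, and the median also hsp70.1. These reached the filter on low counts in all 3 embryos only in 3etv, so this result is not independent of their direction.

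The cytosolic Hsp90 genes did not behave alike. hsp90ab1 (ENSDARG00000029150), the constitutive Hsp90 beta, had 6266, 6414 and 6124 CPM in WT and 6207, 6384 and 5825 CPM in 3etv, overlapping ranges (log2 ratio -0.030, SE 0.054, edgeR adjusted p 0.71). hsp90aa1.1, the muscle form, fell while its neighbour hsp90aa1.2 rose. Of the counts of these adjacent alpha genes, hsp90aa1.2 took 8.93%, 5.60% and 4.69% in WT and 22.6%, 47.0% and 36.8% in 3etv. Their summed level was 401.4, 407.8 and 419.8 CPM in WT and 460.3, 533.3 and 424.0 CPM in 3etv. The sum had a log2 ratio of 0.21 (edgeR adjusted p 0.051) and did not pass. How reads shared by the alpha genes were divided was not tested.

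Constitutive cytosolic Hsp70 genes moved little. Of the 6 constitutive members, 1 rose and 0 fell, or 16.7% called against 31.3% of all genes, and the class median was -0.069. For 4 of the 6 (66.7%, against 45.1% of all genes) the ranges of WT and 3etv were apart. In 3etv, hspa8 and hspa4a lay above WT, and hspa4b and hspa14 below. hspa8 (ENSDARG00000068992), the constitutive Hsc70, had 5644, 5864 and 5926 CPM in WT and 6685, 6506 and 5948 CPM in 3etv. Each 3etv embryo was above each WT embryo, yet the difference missed the threshold (log2 ratio 0.13, SE 0.057, edgeR adjusted p 0.091). It passed without 3etv embryo 3 (adjusted p 0.028).

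hspa4a (ENSDARG00000004754), of the Hsp110 group that resets Hsp70 by nucleotide exchange, was the member that rose. It had 112.2, 102.8 and 98.7 CPM in WT and 130.9, 133.7 and 129.6 CPM in 3etv, with no overlap and a 1.26-fold rise (SE 0.064 on the log2 scale, edgeR adjusted p 0.0017). Its paralogue hspa4b (ENSDARG00000018989) had 324.5 ± 7.21 CPM in WT and 301.3 ± 4.35 in 3etv (log2 ratio -0.11, adjusted p 0.14). hspa14 (ENSDARG00000058030), a ribosome-associated Hsp70, had 101.1 ± 5.67 and 93.3 ± 1.12 CPM (log2 ratio -0.11 at an adjusted p of 0.19). hspa4l (ENSDARG00000053544) was low, at 1.49 ± 0.41 and 1.31 ± 0.52 CPM (adjusted p 0.70).

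Regulators and co-chaperones were looked up beside the members. Of 4 tested regulators, 1 rose and 2 fell (25% and 50%, against 15.9% and 15.4% of all genes). hsf1 (ENSDARG00000008818), the main heat shock transcription factor, had 51.2, 47.0 and 45.7 CPM in WT and 40.3, 40.3 and 43.5 CPM in 3etv (log2 ratio -0.21, SE 0.074, edgeR adjusted p 0.043), a call lost with DESeq2 (adjusted p 0.061) and on leaving out any embryo except 3etv embryo 3 (adjusted p from 0.051 to 0.12). The hsf1 call was also lost with upper-quartile scaling (edgeR adjusted p 0.051). hsf2 (ENSDARG00000053097), a related factor, rose from 33.8 ± 1.86 to 41.8 ± 0.63 CPM (log2 ratio 0.30 at an adjusted p of 0.0072). hsbp1b (ENSDARG00000041921), whose mammalian counterpart binds heat shock factor 1 and lowers its activity, fell from 63.6 ± 0.997 to 48.0 ± 2.83 CPM (log2 ratio -0.41 at an adjusted p of 6.6e-04).

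Among 25 tested co-chaperones of Hsp70 and Hsp90, 9 rose (36%) and 1 fell (4%), with a median log2 ratio of 0.16. Over all genes, 15.9% rose and 15.4% fell. cdc37 (ENSDARG00000099301), which brings kinases to Hsp90, rose from 111.5 ± 5.86 to 162.8 ± 6.80 CPM (1.46-fold, edgeR adjusted p 3.5e-05). hyou1 (ENSDARG00000013670), the large Hsp70-like exchange factor of the endoplasmic reticulum, rose from 75.2 ± 5.04 to 124.6 ± 7.24 CPM (1.66-fold, adjusted p 7.7e-06). sil1 (ENSDARG00000100564), an exchange factor for the same compartment, had 14.5, 9.51 and 8.98 CPM in WT and 23.1, 21.3 and 18.7 CPM in 3etv and rose (1.92-fold, adjusted p 0.0015). hsph1 (ENSDARG00000019874), an Hsp110 that heat induces and that was named after its values were seen, rose from 2.47 ± 0.94 to 5.95 ± 1.04 CPM (2.44-fold, adjusted p 0.0016). On leaving out WT embryo 3 or 3etv embryo 2, 6 co-chaperones were higher and 0 lower.

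The main chaperones of the endoplasmic reticulum, hspa5 and hsp90b1, were higher in 3etv. Of the 17 members placed in this compartment, all tested, 7 rose (41.2%, against 15.9% of all genes). Of the rest, 1 fell and 9 did not pass, and the class median was 0.17. Summed over the class, the level was 668.5, 609.6 and 616.8 CPM in WT and 826.3, 870.6 and 777.0 CPM in 3etv, with no overlap. The mean of this sum went from 632 CPM in WT to 825 CPM in 3etv, and hspa5 alone went from 207 to 335 CPM. The sum therefore does not describe each member.

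hspa5 (ENSDARG00000103846) encodes BiP, the Hsp70 of this compartment. It had 221.7, 197.6 and 200.7 CPM in WT and 339.0, 365.1 and 299.6 CPM in 3etv, a 1.62-fold rise (log2 ratio 0.70, SE 0.075, edgeR adjusted p 2.1e-05). hsp90b1 (ENSDARG00000003570), the Hsp90 of this compartment known as Grp94, had 38.5, 36.8 and 37.4 CPM in WT and 66.9, 83.1 and 59.2 CPM in 3etv, a 1.86-fold rise (log2 ratio 0.89, SE 0.11, adjusted p 7.3e-05). Both were separated between groups by a wide margin, with 3etv embryo 2 the highest and embryo 3 the lowest. hspa13 (ENSDARG00000040984), a microsomal Hsp70, was 1.35-fold higher (adjusted p 0.040), a call lost with DESeq2 (adjusted p 0.083) and on leaving out any 1 embryo (adjusted p from 0.055 to 0.17). The hspa13 call was also lost without a filter on low counts (edgeR adjusted p 0.062).

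J-domain partners of BiP changed unevenly. dnajb9b (ENSDARG00000016886), a counterpart of mammalian ERdj4, had 44, 31 and 29 counts in WT and 65, 85 and 59 in 3etv, or 1.96, 1.06 and 1.16 CPM against 3.48, 3.91 and 3.26 CPM. Its 2.58-fold rise (SE 0.25 on the log2 scale, edgeR adjusted p 0.0013) was the largest of all dnaj genes tested. dnajc3a (ENSDARG00000041110) and dnajc3b (ENSDARG00000017874), counterparts of the mammalian co-chaperone P58IPK, rose 1.47-fold and 1.28-fold (adjusted p 0.0030 and 0.0090). The call for dnajc3b was lost without WT embryo 2 (adjusted p 0.054). dnajc10 (ENSDARG00000074727), a disulphide reductase, rose from 53.9 ± 2.14 to 69.8 ± 2.88 CPM (1.30-fold, adjusted p 9.5e-04). dnajb11 and dnajc1, further partners of BiP, had log2 ratios of 0.081 and -0.023 (adjusted p 0.55 and 0.82), and dnajb11 passed on leaving out WT embryo 1 (log2 ratio 0.21, adjusted p 0.031). dnajc25 was the member of this class that fell, from 27.1 ± 1.57 to 22.1 ± 1.28 CPM (log2 ratio -0.29 at an adjusted p of 0.021), a call lost on leaving out WT embryo 2, WT embryo 3 or 3etv embryo 2 (adjusted p from 0.079 to 0.092).

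Other genes of the unfolded protein response, the pathway that raises these chaperones, were counted from a list. Of 17 tested, 9 rose (52.9%) and 3 fell (17.6%), with a median log2 ratio of 0.22. For all genes these shares were 15.9% and 15.4%. pdia3 (ENSDARG00000102640), a protein disulphide isomerase, rose from 115.6 ± 5.58 to 166.8 ± 5.67 CPM (1.44-fold, edgeR adjusted p 3.5e-05). ern1 (ENSDARG00000013997), the stress sensor IRE1, fell from 61.6 ± 11.4 to 27.9 ± 1.61 CPM (log2 ratio -1.14 at an adjusted p of 2.9e-05). atf4a (ENSDARG00000111939), a transcription factor of the same response, fell from 356.7 ± 16.9 to 253.4 ± 12.8 CPM (log2 ratio -0.49 at an adjusted p of 6.0e-05). The notochord is a strongly secretory tissue, and 2 of its 4 listed markers, col8a1a and shha, rose (50%, against 15.9% of all genes). noto was above WT in each 3etv embryo but was not called. col9a1a overlapped between groups, at 98.39%, 51.65% and 84.62% of its WT mean in 3etv embryos 1 to 3. The summed level of the 4 ranged from 253.2 to 269.6 CPM in WT and from 313.6 to 410.3 CPM in 3etv, with 3etv embryo 2 the highest, and its part in the endoplasmic reticulum result was not tested.

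Of the 12 mitochondrial chaperones, 2 rose, 3 fell and 7 did not pass, with a median log2 ratio of 0.0048. These are 16.7% higher against 15.9% of all genes, 25% lower against 15.4%, and 41.7% called against 31.3%. hspd1 (ENSDARG00000056160), the Hsp60 chamber subunit, had 194.1, 191.7 and 189.8 CPM in WT and 230.2, 235.4 and 212.7 CPM in 3etv, a 1.18-fold rise (log2 ratio 0.24, SE 0.058, edgeR adjusted p 0.0075). Its lid hspe1 (ENSDARG00000056167), the gene next to it in RefSeq's order, had 74.7, 64.9 and 64.6 CPM in WT and 75.5, 77.3 and 76.5 CPM in 3etv. That difference did not pass (log2 ratio 0.17, adjusted p 0.088), but it did without WT embryo 1 (adjusted p 0.013). hspa9 (ENSDARG00000003035), the mitochondrial Hsp70 mortalin, had 233.1 ± 11.3 and 261.2 ± 7.97 CPM, a log2 ratio of 0.16 close to the threshold (adjusted p 0.047), and lost its call with DESeq2 (adjusted p 0.063) and on leaving out any embryo except WT embryo 1 or 3etv embryo 1 (adjusted p from 0.11 to 0.19). The hspa9 call was also lost without a filter on low counts (edgeR adjusted p 0.077).

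Mitochondrial J-domain genes that passed were lower in 3etv. dnaja3a (ENSDARG00000058494), a counterpart of mammalian Tid1, had 42.2, 41.9 and 38.8 CPM in WT and 29.4, 27.8 and 28.3 CPM in 3etv (log2 ratio -0.52, SE 0.076, edgeR adjusted p 2.0e-04). All 3etv embryos were below all WT embryos. Its paralogue dnaja3b had 6.71 ± 0.45 and 6.51 ± 0.26 CPM (adjusted p 0.82). dnajc19 (ENSDARG00000044420), a subunit of the protein import motor, fell from 8.48 ± 0.78 to 6.04 ± 0.58 CPM (log2 ratio -0.49 at an adjusted p of 0.015), a call lost without WT embryo 2 (adjusted p 0.063) and without 3etv embryo 1 (adjusted p 0.057). dnajc4 fell from 6.93 ± 0.30 to 5.24 ± 0.57 CPM (log2 ratio -0.40 at an adjusted p of 0.046), a call lost with DESeq2 (adjusted p 0.091), with upper-quartile scaling (adjusted p 0.054), without a filter on low counts (adjusted p 0.054) and on leaving out any embryo except 3etv embryo 1 (adjusted p from 0.078 to 0.16).

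**Figure D3:**
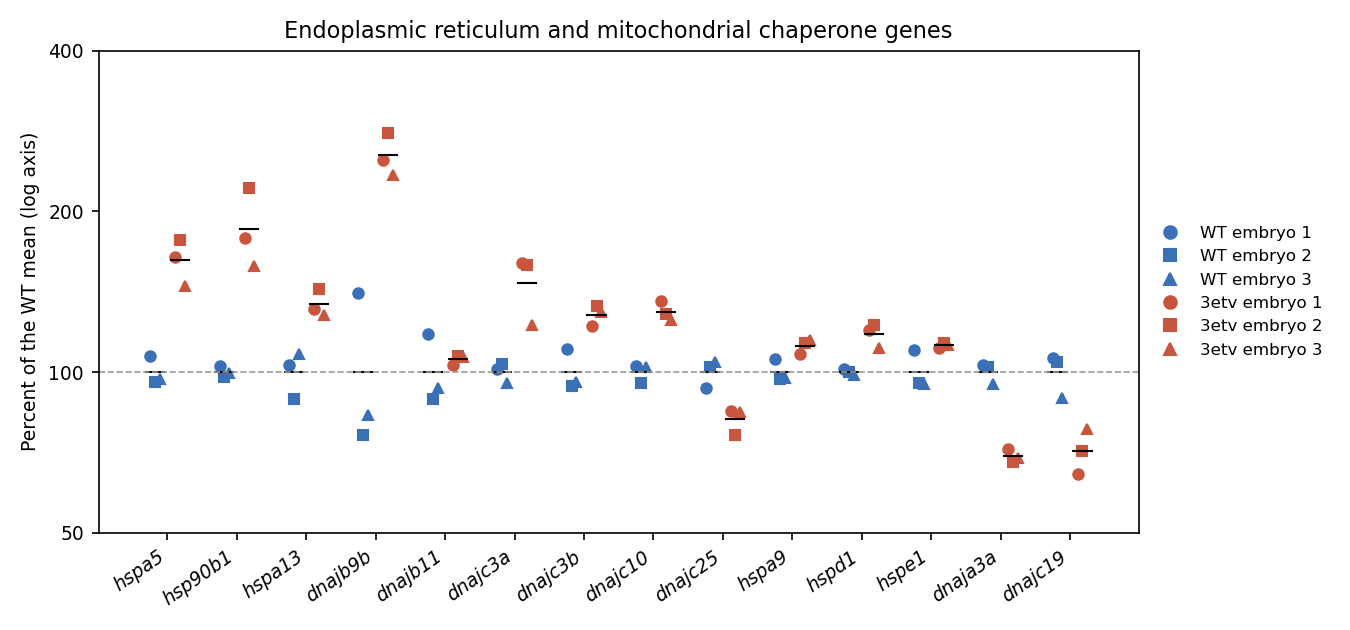
Level of each embryo as a percent of the WT mean (log axis) for 9 endoplasmic reticulum and 5 mitochondrial chaperone genes, with bars at the group means. hspa5, hsp90b1 and dnajb9b lie above all WT embryos in 3etv, while dnaja3a and dnajc19 lie below them.

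The muscle Hsp90 was lower in 3etv and the most abundant small heat shock gene was higher. hsp90aa1.1 (ENSDARG00000010478), the Hsp90 that folds myosin in zebrafish skeletal muscle, had 365.5, 384.9 and 400.1 CPM in WT and 356.3, 282.5 and 268.2 CPM in 3etv. It fell by 0.34 on the log2 scale (with SE 0.094, edgeR adjusted p 0.017). 3etv embryo 1 came close to the lowest WT embryo, and the others were clearly below. The call was lost without WT embryo 3 (adjusted p 0.059), without 3etv embryo 2 (adjusted p 0.067) and without 3etv embryo 3 (adjusted p 0.052).

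Its partners in myosin folding were examined with it. smyd1b (ENSDARG00000091253), a muscle methyltransferase that binds this Hsp90 and myosin, fell from 57.9 ± 1.81 to 43.8 ± 5.14 CPM (edgeR log2 ratio -0.40 at an adjusted p of 0.0027). smyd1a (ENSDARG00000009280), its paralogue, fell from 2.70 ± 0.76 to 0.966 ± 0.40 CPM (log2 ratio -1.49 at an adjusted p of 0.0044). The myosin chaperone unc45b (ENSDARG00000008433) had 155.7, 150.9 and 178.9 CPM in WT and 156.3, 127.7 and 119.9 CPM in 3etv (log2 ratio -0.27, adjusted p 0.062). It missed the threshold and passed with DESeq2 (adjusted p 0.030), without a filter on low counts (adjusted p 0.045) and without 3etv embryo 1 (adjusted p 0.0047). The general form unc45a (ENSDARG00000103643) rose from 14.1 ± 0.62 to 18.9 ± 2.26 CPM (1.34-fold, adjusted p 0.0087).

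Most muscle markers were lower in the same embryos. Of 17 tested, 13 fell (76.5%, against 15.4% of all genes) and 1 rose. The median log2 ratio was -0.77, with desma at -1.51 and tnnc2 at -0.77. The 2 tested markers with positive ratios were acta1b and myhz1.1. acta1b was above WT in each 3etv embryo, at 146.5%, 137.9% and 147.8% of its WT mean in embryos 1 to 3. myhz1.1 overlapped between groups, at 116.1%, 115.1% and 153.1%. The summed level of the listed markers ranged from 1826 to 2077 CPM in WT and from 1280 to 1425 CPM in 3etv, and myhz2 had 0 counts in every embryo. In 3etv the sum was highest in embryo 1, as for hsp90aa1.1, unc45b and smyd1b, and as for 6349 of all 18533 tested genes. The sum and smyd1b were lowest in embryo 2, and hsp90aa1.1 and unc45b in embryo 3. The part of this sum in the hsp90aa1.1 result was not tested.

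Small heat shock genes did not move together. hspb1 (ENSDARG00000041065), the counterpart of Hsp27, had 831.8, 759.4 and 746.7 CPM in WT and 1129, 1360 and 1198 CPM in 3etv. It rose 1.58-fold (log2 ratio 0.66, SE 0.072, edgeR adjusted p 2.3e-05), and its lowest 3etv embryo was 1.36 times the highest WT embryo. hspb8 (ENSDARG00000058365), which works with Bag3 in the removal of damaged proteins, had 24.8, 19.7 and 19.6 CPM in WT and 18.7, 21.4 and 27.6 CPM in 3etv, overlapping ranges (adjusted p 0.70). hspb9 (ENSDARG00000078674) had 18, 30 and 27 counts in WT and 7, 7 and 6 in 3etv. It fell by 1.49 on the log2 scale (with SE 0.37, adjusted p 0.0076), having reached the filter on low counts through WT embryos alone.

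The remaining small heat shock genes were close to the limit of detection. hspb11 (ENSDARG00000002204) had 15, 13 and 14 counts in WT and 9, 5 and 1 in 3etv (log2 ratio -1.09, SE 0.54, edgeR adjusted p 0.15). hspb2, hspb6 and hspb7 had between 1 and 11 counts per embryo and were not tested. hspb7 is known as a heart and muscle gene in zebrafish. The heart markers looked up were low, with a summed level between 1.52 and 3.83 CPM, most of it tnnt2a, which was the 1 heart marker tested and was not called. For the muscle and small heat shock class as a whole, 5 of 8 members were tested, 1 rose and 2 fell. These are 20% and 40% of those tested, against 15.9% and 15.4% of all genes. hspb9, 1 of the 2 that fell, reached the filter on low counts through WT embryos alone. So the share that fell is not independent of its direction.

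**Figure D4:**
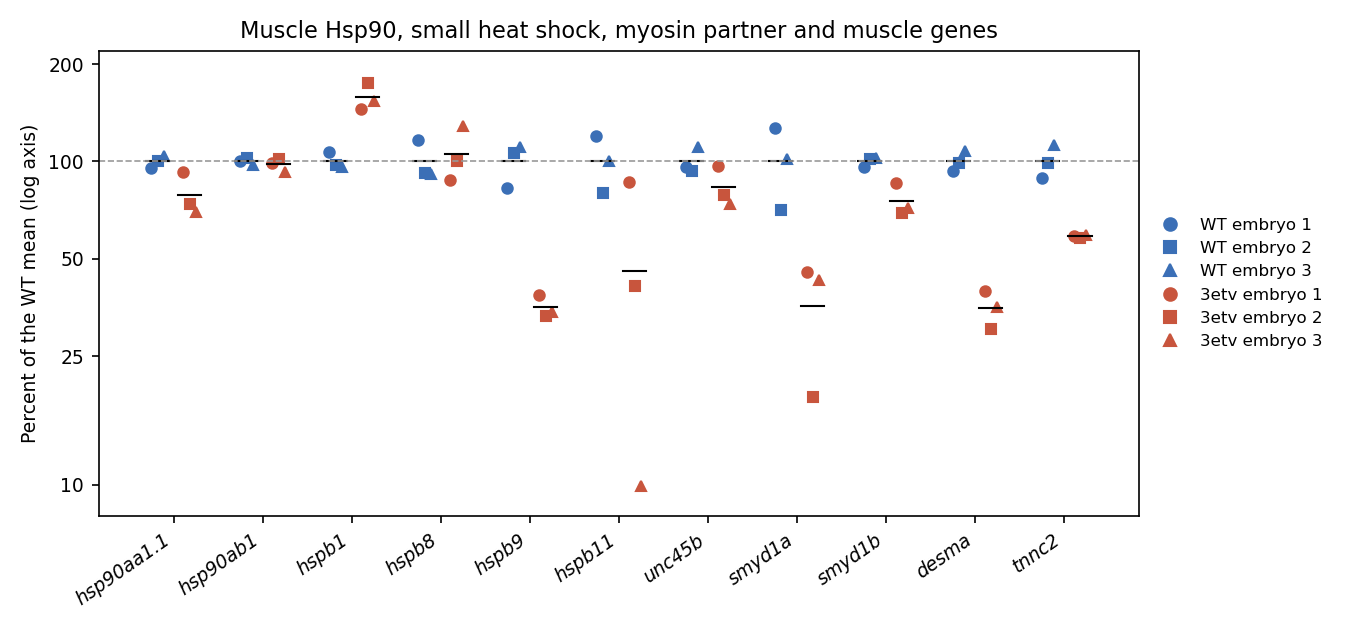
Level of each embryo as a percent of the WT mean (log axis) for muscle Hsp90, constitutive Hsp90, small heat shock genes, myosin folding partners and the muscle markers desma and tnnc2, with bars at the group means. hspb1 is above all WT embryos in 3etv, and hsp90aa1.1, hspb9, smyd1a, smyd1b, desma and tnnc2 are below them. hspb9 reached the filter on low counts through WT embryos alone.

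Among the TRiC subunits some were lower by small amounts and the others did not pass. The 8 TRiC entries cover 7 subunits because cct2 has 2 entries. Of the 8, 4 fell (50%, against 15.4% of all genes) and 0 rose, with a median log2 ratio of -0.14. Summed over the 8, the level was 3451, 3543 and 3550 CPM in WT and 3377, 3189 and 3075 CPM in 3etv. cct4 (ENSDARG00000013475) changed most, with 567.9, 614.5 and 627.2 CPM in WT and 500.2, 468.7 and 437.7 CPM in 3etv. It fell by 0.36 on the log2 scale (with SE 0.064, edgeR adjusted p 8.7e-04), which is 22.3% lower, with no overlap.

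cct7 (ENSDARG00000007385) had 530.2, 510.2 and 542.4 CPM in WT and 467.9, 466.2 and 449.8 CPM in 3etv (log2 ratio -0.19, SE 0.054, edgeR adjusted p 0.014). cct3 (ENSDARG00000016173) had 569.8, 590.1 and 561.8 CPM in WT and 525.4, 514.5 and 504.9 CPM in 3etv (log2 ratio -0.16, SE 0.053, adjusted p 0.038). The lowest WT embryo was 1.09 times the highest 3etv embryo for cct7 and 1.07 times for cct3. The main cct2 entry (ENSDARG00000104674) had 349.6 ± 6.64 and 307.2 ± 25.9 CPM (log2 ratio -0.19 at an adjusted p of 0.042), and the other (ENSDARG00000087206) had 79.1 ± 5.29 and 72.4 ± 8.53 CPM (adjusted p 0.28). Summed, the cct2 entries had a log2 ratio of -0.18 and missed the threshold (adjusted p 0.052). The calls for cct3 and for the main cct2 entry were lost with upper-quartile scaling (adjusted p 0.069 and 0.065), and that for cct7 on leaving out WT embryo 3 (adjusted p 0.067). cct3 kept its call only on leaving out WT embryo 1, and the main cct2 entry only on leaving out 3etv embryo 1. In fits without 1 embryo, from 1 to 3 of the TRiC entries passed, with 1 passing without WT embryo 3.

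The other subunits did not pass. cct5 (ENSDARG00000045399) had 462.2 ± 12.96 CPM in WT and 457.4 ± 30.3 in 3etv (log2 ratio -0.015, edgeR adjusted p 0.87). cct8 (ENSDARG00000008243) had 306.9 ± 3.74 and 296.4 ± 16.2 CPM (log2 ratio -0.050 at an adjusted p of 0.54). cct6a (ENSDARG00000021252) was the entry with a positive value, 612.3 ± 10.5 against 635.5 ± 28.7 CPM (log2 ratio 0.054 at an adjusted p of 0.49). For these subunits the groups overlapped. tcp1 (ENSDARG00000017891), the alpha subunit, whose symbol the rule does not cover, had 487.3 ± 15.7 and 476.5 ± 46.3 CPM (log2 ratio -0.032 at an adjusted p of 0.76).

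Within 3etv, all 8 TRiC entries were highest in embryo 1, and 7 of the 8 had the order embryo 1, then 2, then 3, an order found in 18.5% of all tested genes. Among the inducible members, embryo 1 was the lowest for 5 of 7, in the middle for hsp70.1 and the highest for dnajb1a. These orders are given as a description, since the entries share libraries. The TRiC partners looked up include tcp1 and the prefoldin subunits that pass actin and tubulin to the ring. Of the 8 tested, 1 fell (12.5%, against 15.4% of all genes) and 0 rose. That was the prefoldin subunit pfdn5 (ENSDARG00000035043), from 156.4 ± 10.4 to 128.3 ± 8.54 CPM (edgeR log2 ratio -0.29 at an adjusted p of 0.0069). pfdn6 and pfdn4 had log2 ratios of -0.10 and -0.062 and did not pass (adjusted p 0.26 and 0.46).

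**Figure D5:**
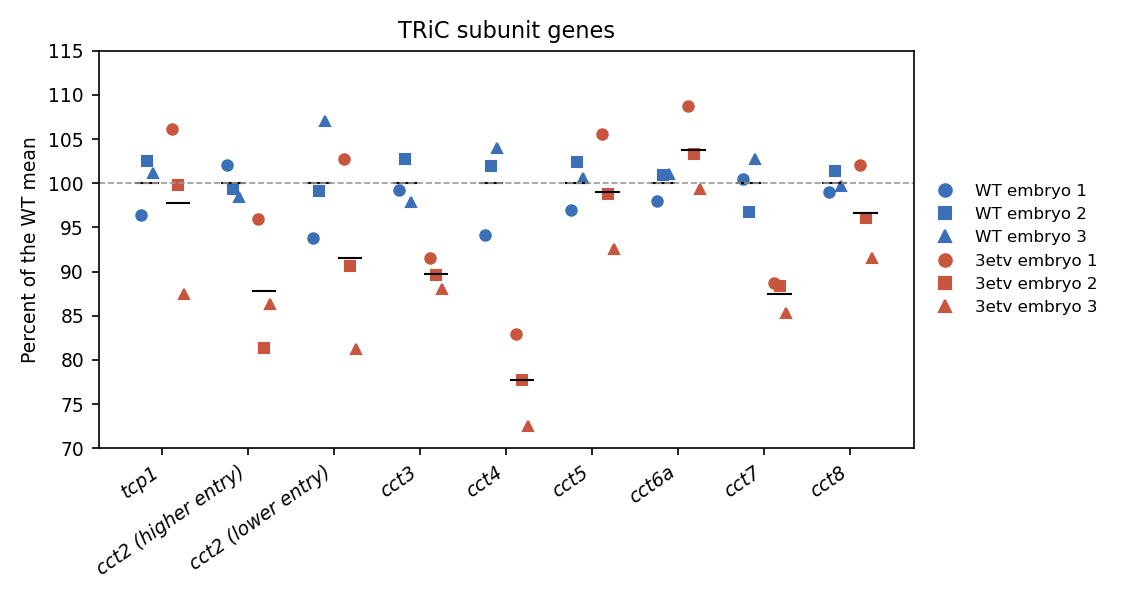
Level of each embryo as a percent of the WT mean for tcp1 and the 8 TRiC entries, with bars at the group means. cct4, cct3, cct7 and the higher cct2 entry lie below all WT embryos in 3etv, and 3etv embryo 1 is the highest 3etv embryo in each entry.

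J-domain genes outside the classes above were called at a share near that of all genes. Of the 24 tested, 3 rose and 3 fell (25% against 31.3%), with a median log2 ratio of 0.069. Over all 49 dnaj symbols, organelle members included, 7 rose and 7 fell (28.6%). dnajc14 (ENSDARG00000105398), whose mammalian counterpart sits in the membrane of the endoplasmic reticulum, had 13.03, 14.2 and 13.8 CPM in WT and 20.1, 22.9 and 19.4 CPM in 3etv, a 1.52-fold rise (SE 0.098 on the log2 scale, edgeR adjusted p 5.0e-04). dnaja2b (ENSDARG00000010745), a cytosolic Hsp70 partner, had 190.8, 171.3 and 165.1 CPM in WT and 150.3, 137.2 and 150.7 CPM in 3etv (log2 ratio -0.27, SE 0.069, adjusted p 0.0098). Its paralogue dnaja2a had 350.6 ± 24.9 and 334.9 ± 8.44 CPM (adjusted p 0.45). dnajc8 (ENSDARG00000059373), a spliceosome-associated protein, fell from 122.9 ± 1.80 to 104.4 ± 6.70 CPM (log2 ratio -0.24 at an adjusted p of 0.013), a call lost without WT embryo 2 (adjusted p 0.055) and without 3etv embryo 2 (adjusted p 0.066). The others that passed were dnajc12 and dnaja1, higher, and dnajc2, lower, with log2 ratios of 0.85, 0.31 and -0.18 (edgeR adjusted p 0.025, 0.049 and 0.046). With DESeq2, dnajc12 and dnajc2 did not pass (adjusted p 0.061 and 0.055). dnajc2 also missed the threshold with upper-quartile scaling (edgeR adjusted p 0.067). dnaja1 missed it where genes needed a mean of 50 counts (edgeR adjusted p 0.053). dnajc12 lost its call on leaving out WT embryo 3, 3etv embryo 2 or 3etv embryo 3 (adjusted p from 0.074 to 0.087). dnaja1 passed only on leaving out WT embryo 1, and dnajc2 only on leaving out 3etv embryo 1.

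The divergent Hsp70 relatives hspa12a and hspa12b differed in opposite directions. hspa12a (ENSDARG00000070603) had 9.14, 8.79 and 9.30 CPM in WT and 13.2, 13.6 and 11.4 CPM in 3etv, a 1.41-fold rise (SE 0.11 on the log2 scale, edgeR adjusted p 0.0052). hspa12b (ENSDARG00000030307), an endothelial gene in zebrafish, had 2.90, 5.17 and 2.55 CPM in WT and 2.09, 2.07 and 1.27 CPM in 3etv (log2 ratio -0.97, SE 0.30, adjusted p 0.026). WT embryo 2 was well above the other WT embryos in hspa12b, and on leaving it out the log2 ratio was -0.58 and did not pass (edgeR adjusted p 0.15). The hspa12b call was also lost on leaving out 3etv embryo 3 (adjusted p 0.091) or 3etv embryo 2 (adjusted p 0.050127). Of 4 red blood markers, 2 were called lower in 3etv (50%, against 15.4% of all genes). These were gata1a and hbbe1.1, with log2 ratios of -0.59 and -0.92 (edgeR adjusted p 0.0048 and 0.046). alas2 went the other way, at 150.7%, 172.6% and 119.2% of its WT mean in 3etv embryos 1 to 3, and was not called. hbae1.1 overlapped between groups. The summed level of the 4 ranged from 13.6 to 14.4 CPM in WT and from 8.88 to 10.7 CPM in 3etv. Its part in the hspa12b result was not tested, and no endothelial marker was looked up.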

How the data were processed

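The authors deposited 1 table of raw counts per Ensembl gene, whole numbers with no normalization. Per the submitters' processing notes, STAR, HTSeq and GRCz11 were used; their versions, settings and annotation release are not given in the sources used here. Libraries were poly-A enriched and strand-specific, per the labels' protocols, and each came from 1 embryo. A space stands for a tab in the header, so columns were matched by the order of names equal to sample titles. The 5 summary entries stayed out of library sizes and tests; they held between 58.3% and 60.3% of reads.

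Genes were filtered with filterByExpr, scaled by TMM and fitted on the whole table with edgeR 4.0.16 in R 4.3.3 (robust quasi-likelihood, genotype alone). P-values were adjusted by Benjamini-Hochberg over 18533 genes, and calls were made under 0.05. Standard errors are the absolute log2 fold change over the root of F. The method was tried on simulated counts in which far fewer genes changed than were called here, which gives no error rate for these data. DESeq2 1.42.0 and limma 3.58.1 (voom) were alternatives. Members, classes and lists were chosen with earlier results of these data known. All members of the inducible, constitutive, muscle and TRiC classes were to be named, then hspa5, hsp90b1, hspa9, hspd1, hspe1, the 10 other members with the lowest adjusted p, and tcp1, hsf1, unc45b, smyd1a, smyd1b and the 3 genes with the lowest adjusted p per partner list; others were named after their values were seen. Counts of embryos in a group differed beyond sampling noise in every pair (chi-square over degrees of freedom at least 3.65), and each library was counted as 1 sample. No sequence is shown.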

Additional observations from a re-analysis of the deposited data

How the results depend on the processing

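Of the 84 members, 34 differed, leaving out 1 embryo gave from 20 to 33, and an adjusted p under 0.01 gave 18. Over all genes, 5801 were called in the fit on all embryos and from 4247 to 5721 on leaving out 1. The count over all genes under 0.01 is not given here. For the classes, leaving out 1 embryo gave from 3 to 6 inducible members against 5, 1 to 2 constitutive against 1, 5 to 8 of the endoplasmic reticulum against 8, 2 to 5 mitochondrial against 5, 1 to 3 TRiC against 4, 3 to 5 J-domain against 6, 2 to 3 muscle and small heat shock against 3, and 1 to 2 other members against 2; co-chaperones ranged from 6 to 11 against 10. At an adjusted p under 0.01 there were 3 inducible, 1 TRiC, 2 mitochondrial, 2 J-domain and 1 other member, and 6 co-chaperones. TRiC gave 2 with upper-quartile scaling. The mitochondrial class gave 3 with DESeq2 and 3 without a filter. Where genes needed a mean of 50 counts, the inducible class gave 3, because fewer genes were tested. Except where stated, the cause was not tested.

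With the replicate number as a block, 23 members differed, with 1 TRiC, 2 J-domain and 3 mitochondrial members. Over all genes, 4524 were called with this block against 5801 without it, so the drop was not particular to the members. Among members, the calls lost were those of cct3, cct7, the main cct2 entry, hspa9, hspa13, dnajc2, dnajc4, dnajc8, dnajc12, dnajc25 and dnaja1. hsf1 also lost its call with this block (edgeR adjusted p 0.11). Same-numbered embryos are different animals, and the mean correlation of their deviations was -0.14, against 0.067 between embryos of unlike number, so the block rests on a shared number alone.

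Leaving out 1 embryo turned the sign of 8 genes not called in the fit on all embryos, with log2 ratios (3etv over WT) from -0.060 to 0.033 for cct5, -0.48 to 0.069 for hspa4l, -0.062 to 0.0087 for hsp90ab1, -0.082 to 0.20 for hspb8, -0.091 to 0.044 for tcp1, -0.00073 to 0.21 for dnajb11, -0.057 to 0.031 for dnajc1 and -0.083 to 0.0099 for dnaja3b. Summing hsp90aa1.1 with hsp90aa1.2 gave 0.21, which turns the sign of hsp90aa1.1; this sum was chosen after seeing the data. In the fits with other settings, 454 gene results kept their side of the threshold, 27 became weaker and 2 stronger; without 1 embryo, 341, 62 and 6 did so. Counts below about 10 per embryo, as in hsp70.1, hspb2, hspb6 and hspb7 in most embryos, limit what can be told for them.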
